A study of Bos taurus with 45 samples.

Results

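The rumen papillae of 15 heifers were compared for 150 genes whose level varied widely from animal to animal on a low grain diet and much less on both high grain diets, while the mean log2 level over the animals changed by less than a set limit. The 150 genes were chosen by these very values. From 24616 genes in the deposited files, 11516 were expressed, that is, each of the 15 heifers had over 1 RPM (reads on a gene per 1000000 reads on all genes) on 1 diet or more. In 10931 of these, the mean within-heifer change of log2(RPM + 1) from the low grain diet was under 0.5 in size on both high grain diets. These genes were ranked by their narrowing, which is the standard deviation (SD) of log2(RPM + 1) over the heifers on the low grain diet minus the mean of the SDs on the high grain diets, and the first 150 were taken. A set of 12 genes was left out of the ranking beforehand. Of these, 5 met the limits and 0 would have ranked among the 150.

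The animals, Angus-Hereford crossbred yearling heifers that the labels call healthy, were all moved from forage to grain in steps. Each was biopsied on 3 diets, which the sample labels give as 3% grain (fed on days 1 to 4), 75% grain (days 13 to 16) and 92% grain (days 21 to 29), 15 samples per diet and 45 in all. The paper gives slightly lower percentages for each diet, and those of the labels are used here. The diets were fed in the same order to every animal, so diet and time on the experiment cannot be told apart, and no group kept on the low grain diet was analysed here.

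Rumen papillae are the finger-like folds of the rumen wall. Their surface is a layered, keratinised epithelium that takes up the short chain fatty acids made by rumen microbes and keeps those microbes out of the body, over a core of connective tissue with vessels and immune cells. Grain ferments faster than forage, so that acid load and rumen pH shift when grain replaces forage. A biopsy mixes these cell types, and fewer cells of a type and less RNA per cell cannot be told apart in such samples. The files identify genes by Ensembl IDs alone and do not pair them with names. The paper's text pairs 2 of the 150 IDs with names, which are used here, and neither the labelled tissue nor any cell type could be checked against marker genes. The other genes are given by rank and, for a few, by ID.

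Depth did not single out the samples that matter below. In units of 1000000 reads (M), the samples held 22.5 to 37.1 M reads on genes, and the medians of the diets lay between 28.4 and 31.0 M. In the 3% grain sample of heifer 172, which stood apart most often, there were 32.7 M reads, and heifers 170, 262 and 294 had 29.7, 28.5 and 32.8 M reads, within a range of 24.6 to 36.7 M on that diet. The 10 most abundant genes took 21.1%, 21.9%, 23.1% and 18.9% of the reads in the 3% grain samples of heifers 172, 170, 262 and 294. These shares ran from 18.6% to 23.1% on that diet, so that heifer 262 had the highest. Its TMM factor on 3% grain was 0.91. Over expressed genes, the 3% grain samples of heifers 170, 172 and 262 each correlated best, among the 15 samples on 75% grain, with the sample of the same heifer. For heifer 294 the own sample came 3rd. On 92% grain the sample of heifer 286 stood apart: its 10 most abundant genes took 26.0% of the reads, the highest share of the 45 samples, which began at 16.7%, and its TMM factor of 0.83 was the lowest.

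On 3% grain, the SD of log2(RPM + 1) over the 15 heifers had a median of 0.72 across the 150 genes and ran from 0.42 to 2.64. On 75% grain the median SD was 0.41 and on 92% grain it was 0.38. Over all 11516 expressed genes the corresponding medians were 0.22, 0.20 and 0.21. Narrowing of the 150 genes ranged from 0.24 to 0.89 with a median of 0.30, against a median of 0.015 over expressed genes. These differences follow from the way the genes were ranked and are given as a description. The highest narrowing of all expressed genes, 1.24, belonged to a gene past the limit on the mean change, which was not ranked. At the edge of the list, the genes ranked 149 and 150 had a narrowing of 0.242 and 0.241, and the first genes outside it, ranked 151 and 152, had 0.241 and 0.240. The edge therefore separates genes with nearly equal values.

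**Figure D1:**
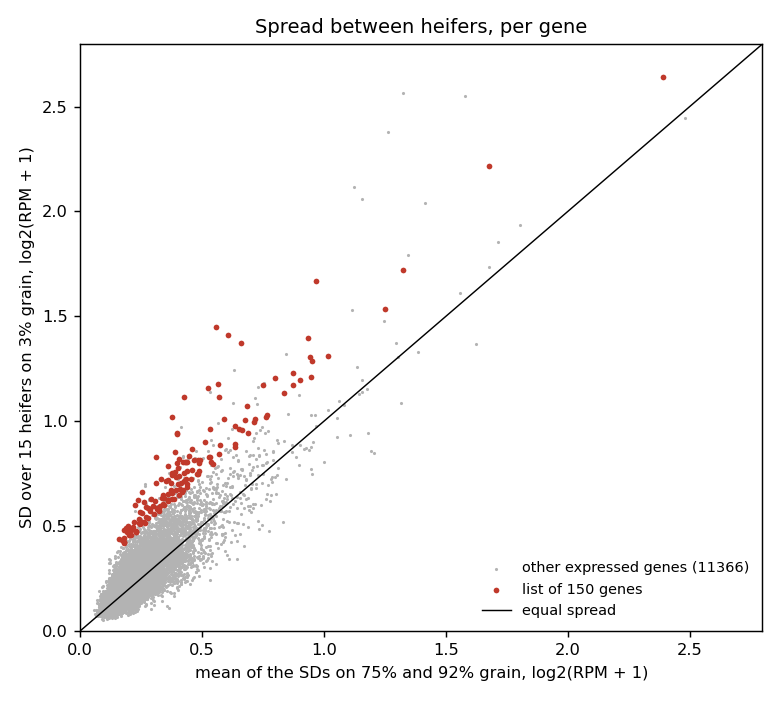
Each point is an expressed gene, with the mean of its SDs on 75% and 92% grain on the x axis and its SD on 3% grain on the y axis, both of log2(RPM + 1) over 15 heifers. The 150 genes (red) lie above the line of equal spread because they were chosen for it, and they run from small spreads next to the cloud of other genes (grey) up to an SD of 2.64.

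The lean to a wider spread on 3% grain was not particular to the list. Of all 11516 expressed genes, 7003 (60.8%) had a larger SD on 3% grain than the mean of their SDs on the other diets, and 5241 (45.5%) had a larger SD than on either of them. This share depended on a few animals. It was 53.5% without heifer 172 and 68.4% without heifer 286, and it was 43.7% of 11603 genes when heifers 170, 172 and 262 were left out together.

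In RPM, the heifer with the highest level exceeded the heifer with the lowest level by a median factor of 7.39 on 3% grain, and by more than 10-fold for 54 of the 150 genes. On 75% grain the median factor was 3.18, with 14 genes over 10-fold, and on 92% grain it was 2.82, with 13 genes. Across expressed genes the median factor was 1.83, 1.70 and 1.79, respectively. The SD that counting error alone would give on 3% grain lay between 0.0061 and 0.12 on the log2 scale, with a median of 0.065. The genes were neither mostly rare nor mostly abundant. Their mean level on 3% grain ran from 2.07 to 3172 RPM with a median of 19.0 RPM, against 21.1 RPM for expressed genes, and 23 were over 100 RPM and 45 under 10 RPM.

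The following counts describe the shape of the spread, which the ranking fixed in large part. The median on 75% grain lay within the quartiles of the 3% grain samples for 123 of the 150 genes (82.0%; 56.1% of expressed genes), and the median on 92% grain for 125 (83.3%; 57.7%). The 3% grain samples stretched past the other 30 samples at both ends for 79 genes (52.7%; 9.89% of expressed genes), at the high end only for 27 (18%; 18.6%) and at the low end only for 44 (29.3%; 41.5%). For 120 genes (80%; 27.8% of expressed genes) at least 3 heifers on 3% grain lay outside the range of the other 30 samples. In every heifer, 127 of the 150 genes passed 1 RPM on 3% grain (84.7%; 95.9% of expressed genes), 147 on 75% grain (98.0%; 98.3%) and 144 on 92% grain (96.0%; 98.0%), and 122 were over 1 RPM in all 45 samples. A gene had to pass on only 1 diet to enter the ranking, so that 23 entered through a high grain diet alone.

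The gene ranked first, ENSBTAG00000009125, had 1.61 RPM in the lowest heifer on 3% grain, a median of 6.78 RPM and 51.5 RPM in the highest. On 75% grain the lowest, median and highest values were 2.32, 5.49 and 13.3 RPM, and on 92% grain they were 3.01, 6.09 and 14.9 RPM. The 3 highest samples on 3% grain, from heifers 172, 170 and 294, at 51.5, 45.5 and 41.0 RPM, all lay above every sample on the high grain diets, whereas the medians of the diets were close. Its SD on the log2 scale was 1.45 on 3% grain, 0.59 on 75% grain and 0.53 on 92% grain. Among expressed genes, those most like it over the 45 samples were ENSBTAG00000048171, which is not in the list (Pearson's r = 0.84), and the genes ranked 9 and 3 (r = 0.83 and 0.82). The 45 samples share heifers and diets, and the likeness is a description.

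The gene ranked 9, ENSBTAG00000001785, was the most abundant of the list. It had 911 RPM in the lowest heifer on 3% grain, a median of 1805 RPM and 9032 RPM in the highest. It ran from 909 to 3464 RPM around a median of 1769 RPM on 75% grain, and from 1096 to 3869 RPM around 1664 RPM when the heifers ate 92% grain. By the median absolute deviation, which gives less weight to extreme animals, its narrowing was 0.14, against 0.55 by the SD. Again heifers 172, 294 and 170 were highest on 3% grain, at 9032, 8973 and 7044 RPM, and 4 heifers in all lay above every sample on the high grain diets. The gene ranked 3, ENSBTAG00000012640, had the same 3 heifers on top, at 4660 RPM for heifer 172, 3629 RPM for heifer 170 and 3553 RPM for heifer 294, over a median of 614.5 RPM.

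The gene ranked second, ENSBTAG00000002138, showed the reverse. Its lowest, median and highest values were 11.5, 132 and 202 RPM on 3% grain, whereas they were 41.2, 95.9 and 171 RPM when the heifers ate 75% grain and 46.9, 112 and 218 RPM on 92% grain. Here heifers 172 and 170 were the lowest on 3% grain, at 11.5 and 12.9 RPM, and 4 heifers in all lay below every sample on the high grain diets, while the highest heifers reached like levels on all 3 diets. Its SD was 1.41, 0.56 and 0.64 on the 3 diets, a narrowing of 0.81, which was 0.12 by the median absolute deviation.

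C-X-C motif chemokine 6 (ENSBTAG00000009812), which belongs to the chemokines that attract neutrophils, ranked 14th. It had 0.56 RPM in the lowest heifer on 3% grain, a median of 2.03 RPM and 26.4 RPM in the highest, with over 1 RPM in 12 of 15 heifers. On 75% grain it had 1.67, 3.97 and 20.5 RPM and was over 1 RPM in all 15 heifers, and on 92% grain 0.55, 2.41 and 13.8 RPM, over 1 RPM in 11. The paper lists it as expressed only on the middle diet, where expressed meant over 1 RPM in all 15 heifers. Heifers 172, 170 and 294 were highest on 3% grain, at 26.4, 24.1 and 17.6 RPM, and the diets overlapped. Heifer 294, the third highest on 3% grain, was the lowest of all on 75% grain. The SD narrowed less evenly than for the genes above, from 1.40 on 3% grain to 0.82 on 75% grain and 1.05 on 92% grain. Without heifers 170, 172 and 262, its narrowing of 0.46 came to 0.12.

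The other gene with a name, printed in the paper as *RASL1A* (ENSBTAG00000005244), is a member of the RAS-like small GTPases. The paper's description of it gives a different family number, so the symbol may be misprinted. The gene ranked 87th and had another pattern. On 3% grain it had 0.39, 7.99 and 19.9 RPM in the lowest, median and highest heifer. The same values were 0.84, 7.56 and 18.4 RPM on 75% grain and 1.22, 7.50 and 16.9 RPM on 92% grain. Heifer 362 was highest and heifer 258 lowest on every diet, and the 3 diets overlapped almost fully. The SD was 1.31, 1.00 and 1.04 on the 3 diets. It was over 1 RPM in 13 of 15 heifers on 3% grain, 14 on 75% grain and 15 on 92% grain. It therefore entered the ranking through 92% grain alone, and the paper lists it as expressed only on its diet with the most grain. Its narrowing of 0.29 by the SD was 0.47 with a pseudocount of 0.1 in place of 1. By the median absolute deviation it turned to -0.0052. From 3% to 75% grain the levels of the heifers correlated with r = 0.63. Between 75% and 92% grain they correlated with r = 0.95, the highest value in the list. The next highest, r = 0.92, belonged to ENSBTAG00000006991, ranked 136. That gene had the largest spread of the list on every diet, ranging over 2.02 to 666 RPM, 2.54 to 406 RPM and 1.84 to 300.3 RPM as grain went from 3% to 75% and 92%, with an SD of 2.64, 2.44 and 2.34. Its narrowing of 0.25 came to 0.083 without heifer 172, 0.099 without heifer 262, 0.42 without heifer 360 and -0.057 without heifers 170, 172 and 262 together.

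**Figure D2:**
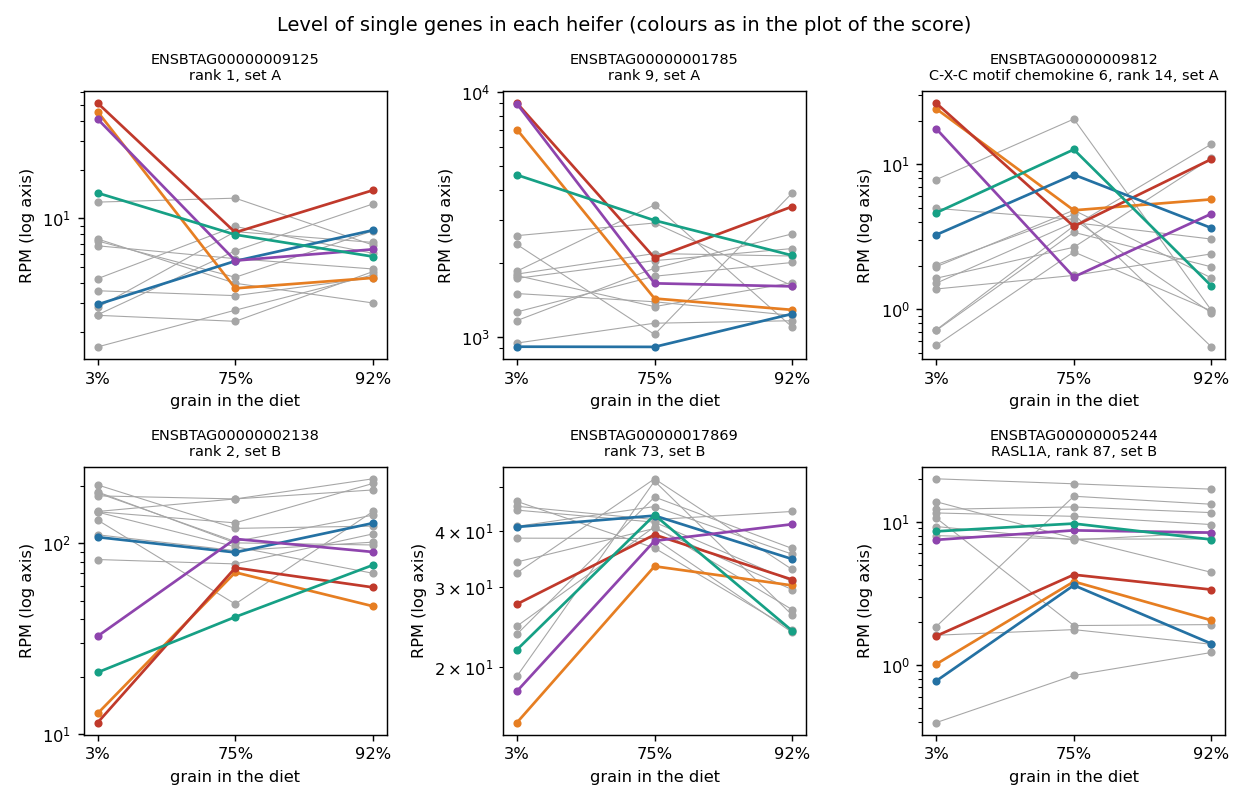
Level of 6 genes in each of the 15 heifers on 3 diets, in RPM on log axes, with a line per heifer and heifers 172 (red), 170 (orange), 294 (purple), 314 (green) and 262 (blue) in colour. In the genes ranked 1 and 9 and in C-X-C motif chemokine 6, heifers 172, 170 and 294 are on top on 3% grain, and on grain none of them lies above all other heifers except heifer 172 for the gene ranked 1 on 92% grain. In the gene ranked 2, heifers 172 and 170 are at the bottom on 3% grain, and in *RASL1A* the lines of most heifers keep their order.

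The levels of the 150 genes on 3% grain shared a pattern over the heifers. The genes were chosen for their spread on that diet, and the shares here are a description. The first principal component of their levels, each scaled to unit variance, held 55.0% of the variance over the 15 heifers on 3% grain, 21.9% on 75% grain and 23.4% on 92% grain. For all expressed genes, it held 21.8%, 18.7% and 24.2%. Without heifer 172, the share on 3% grain was 55.8%. The sign of each gene on this component divided the list into 75 genes that shared the sign of heifer 172 (set A) and 75 with the opposite sign (set B). The sets were made from the levels on 3% grain, so that their opposition on that diet is a description. Among the 11175 pairs of genes on 3% grain, the median correlation was 0.60 within a set and -0.51 across sets. On 75% grain the medians were 0.22 and -0.06, and on 92% grain 0.19 and 0.04, both nearer to 0 than on 3% grain. Without heifer 286, those on 92% grain were 0.13 and -0.06.

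**Figure D3:**
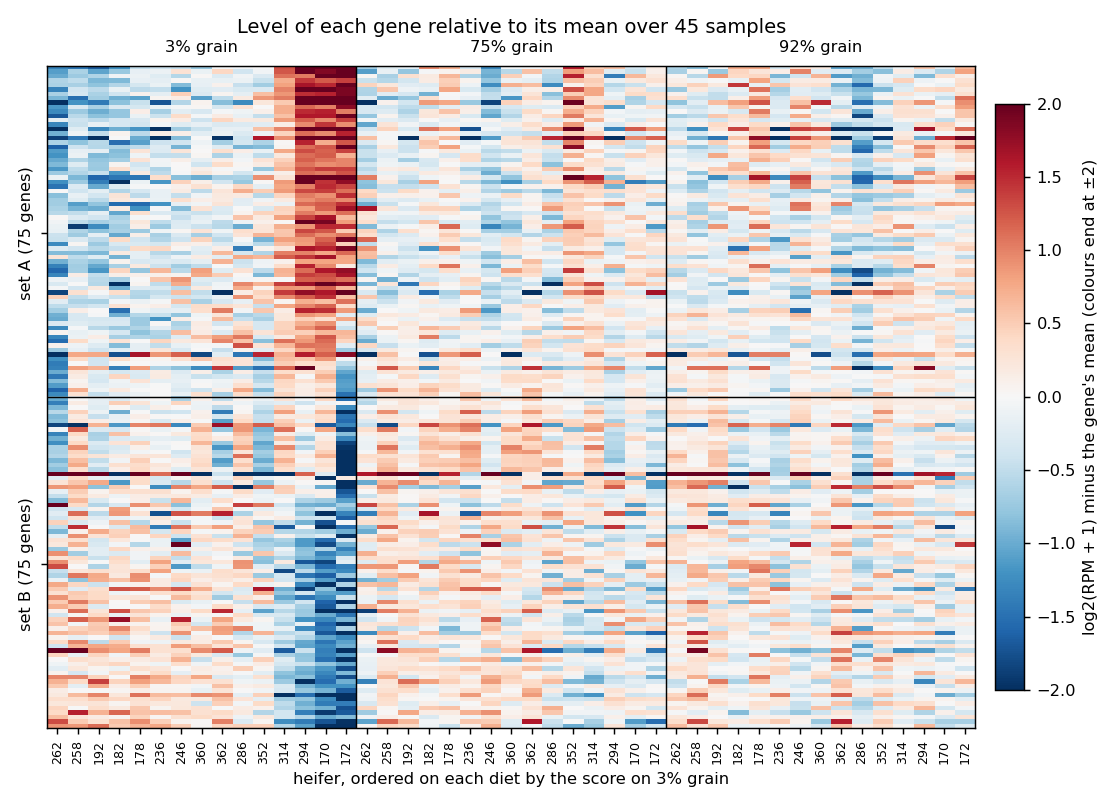
Level of each of the 150 genes (rows, set A above set B) in each of the 45 samples (columns, by diet, with the heifers in the same order on each), as log2(RPM + 1) minus the gene's mean. On 3% grain, heifers 314, 294, 170 and 172 on the right are high in set A and low in set B and heifer 262 on the left is low in set A, and on 75% and 92% grain these heifers do not stand out in both sets. Other samples do in set A, where heifer 314 on 75% grain has 71 of 75 genes above their mean and heifer 286 on 92% grain has 8.

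The position of a sample between the sets was written as a score, the mean deviation of set A from its mean over 45 samples minus that of set B, on the log2 scale. Its wider range on 3% grain follows from the choice of genes and sets. On 3% grain the score was 2.55 in heifer 172, 2.21 in heifer 170, 1.83 in heifer 294 and 0.90 in heifer 314. The other 11 heifers lay between -0.97, in heifer 262, and 0.07, in heifer 352. On 75% grain all scores were between -0.73 and 0.63, and on 92% grain between -0.59 and 0.31, so that heifers 172, 170, 294 and 314 on 3% grain were above all 30 samples on grain. The SD of the score was 1.15 on 3% grain, 0.36 on 75% grain and 0.31 on 92% grain, and it was 0.97 on 3% grain without heifer 172. Heifers 172 and 170 had scores of 0.29 and 0.17 on 75% grain and of 0.31 and 0.27 on 92% grain, where heifer 172 had the highest score again. Heifer 294 had -0.20 and 0.16.

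**Figure D4:**
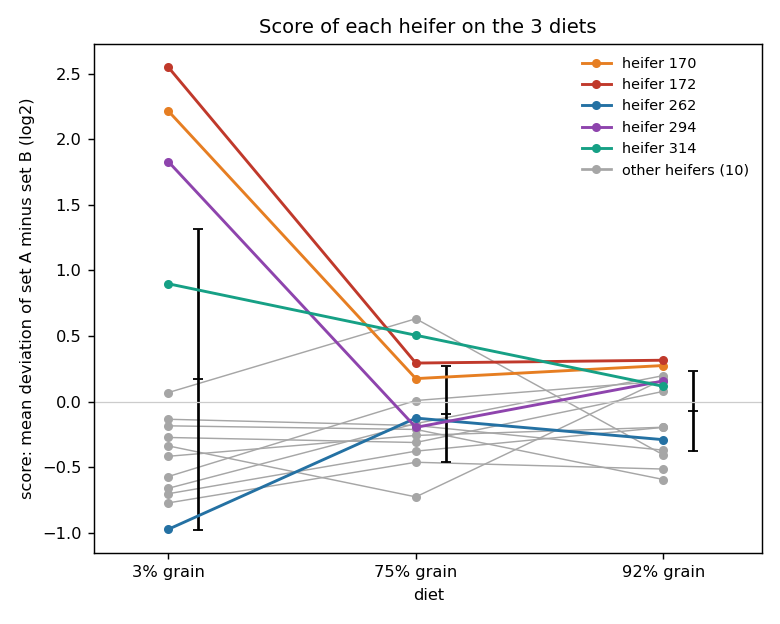
Score of each heifer on the 3 diets, in log2 units, with a line per heifer; the black marks give the mean and SD over 15 heifers. On 3% grain, heifers 172, 170, 294 and 314 lie at 0.90 to 2.55 and the others at 0.07 or below, and on 75% and 92% grain all samples lie between -0.73 and 0.63.

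The sums of RPM over each set were also compared. The 75 genes of set A summed to 21175 RPM in heifer 172 on 3% grain, 19561 RPM in heifer 294 and 17809 RPM in heifer 170, over a median of 5319 RPM and a lowest value of 2733 RPM in heifer 262. On 75% grain the sum ran from 3409 to 9860 RPM and on 92% grain from 3242 to 8636 RPM, with medians of 5640 and 5420 RPM. In the highest heifers the genes ranked 9 and 3 held most of it, with 13692 of the 21175 RPM in heifer 172 and 12526 of the 19561 RPM in heifer 294. They held less of it in other heifers, such as 1197 of the 3323 RPM in heifer 192 on 3% grain. The other 73 genes summed to 1502 to 7483 RPM on 3% grain, with a median of 2980 RPM, 2053 to 3942 RPM on 75% grain and 1597 to 3935 RPM on 92% grain. The 75 genes of set B summed to 3012 RPM in heifer 172, 4232 RPM in heifer 170 and 5845 RPM in heifer 294 on 3% grain, where the highest value was 10749 RPM. On 75% and 92% grain they summed to at least 6778 and 7731 RPM. In heifer 172, 61 of the 75 genes of set A were above their mean over all samples and 74 of the 75 of set B were not. In heifer 170, 75 of set A were above their mean and 17 of set B were.

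The axis reached beyond the list. Of the 11366 other expressed genes, 1245 (11.0%) had a correlation with the score over the 15 samples on 3% grain that exceeded 0.7 in size, 692 of them positive and 553 negative. The score was built from genes in the same libraries, and 4 heifers set much of it, so that this share is a description.

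The genes, the sets and the heifers at the ends were all chosen on the 3% grain levels, so the directions of change that follow are a description. In heifer 170, 75 of 75 genes of set A had a lower level on 75% than on 3% grain, with a median change of -1.09, and 59 of 75 genes of set B had a higher level, with a median change of 0.94. In heifer 294, 75 of set A were lower (median -1.25) and 60 of set B were higher (median 0.79). In heifer 172, 62 of set A were lower (median -1.06) and 74 of set B were higher (median 1.24). Heifer 262 went the other way in set A, where 68 genes were higher on 75% grain (median 0.67), and set B did not move as a block (34 higher, median -0.08). In heifer 360, whose score on 3% grain was near the middle, the medians were -0.04 and -0.02. The mean change over heifers was small, as the choice of genes required. The median over set A was -0.11 from 3% to 75% grain and -0.11 from 3% to 92% grain, and over set B 0.22 and 0.18.

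Counted as steps, 453 of 2250 changes of a gene in a heifer from 3% to 75% grain (20.1%) were over 1 in size on the log2 scale, as were 482 (21.4%) from 3% to 92% grain. From 75% to 92% grain, 187 (8.31%) were. Over expressed genes the shares were 2.58%, 3.04% and 1.43%. The genes were chosen for a wide spread on 3% grain, which makes the steps from that diet large. Heifer 172 had the most from 3% grain, with 95 of 150 genes on each step, and heifer 286 the most from 75% to 92% grain, with 31.

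The ends of the range were held by few animals. On 3% grain, heifer 172 was the highest of the 15 heifers for 30 genes and the lowest for 47, heifer 170 the highest for 30 and the lowest for 25, and heifer 262 the highest for 11 and the lowest for 39. At least 1 of these 3 heifers was at an end of the range for 138 of the 150 genes (92.0%), and for 63.7% of expressed genes. Set A had heifer 172 highest for 30 genes and heifer 170 for 27, with heifer 262 lowest for 37. Set B had heifer 172 lowest for 44 and heifer 170 for 25. Heifer 172 was at either end for 51.3% of the 150 genes and 27.9% of expressed genes, heifer 170 for 36.7% and 22.8%, and heifer 262 for 33.3% and 25.1%. Heifer 172 held fewer ends on grain. It was at either end for 20 genes (13.3%) on 75% grain and 9 genes (6%) on 92% grain. Over expressed genes its shares were 7.76% and 6.95%, so that it held fewer ends on grain there too. On 92% grain, heifer 286 was at either end for 57 genes (38.0%), and for 42.3% of expressed genes.

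**Figure D5:**
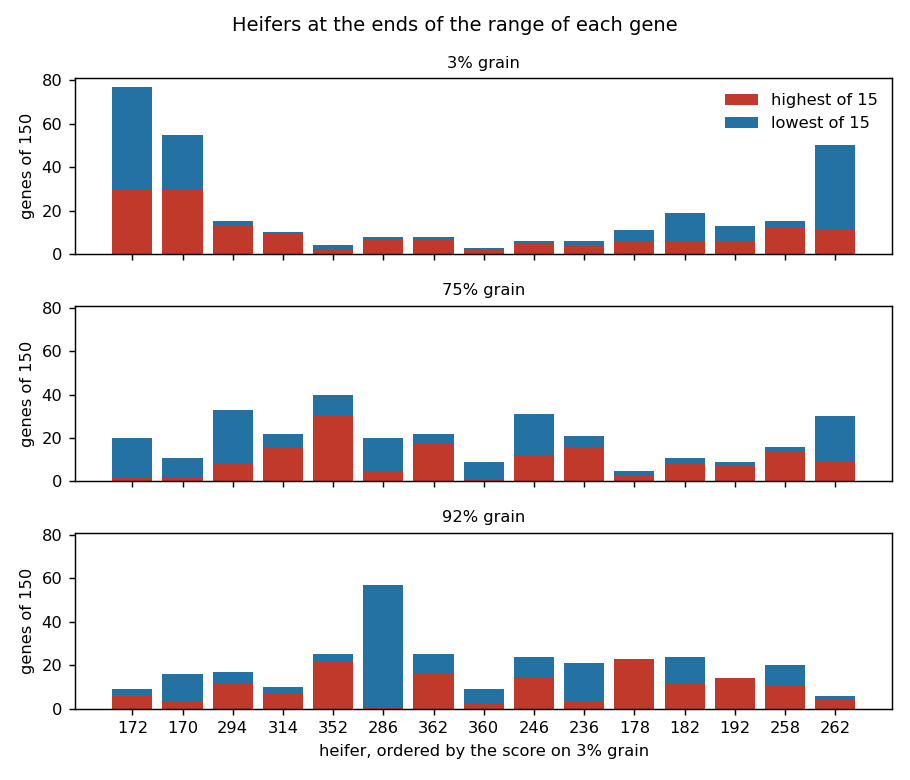
Number of the 150 genes for which each heifer was the highest (red) or the lowest (blue) of the 15 heifers, on 3% grain (top), 75% grain (middle) and 92% grain (bottom), with the heifers ordered by their score on 3% grain. Heifers 172, 170 and 262 hold most ends on 3% grain, whereas heifer 286 holds 57 on 92% grain.

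The wide spread was then described with samples left out. The genes were ranked by their excess of SD on 3% grain, so the counts in this paragraph follow in large part from that choice. For 138 of the 150 genes, the SD on 3% grain stayed above both other SDs whichever heifer was left out on 3% grain. When a heifer was left out on all diets and the genes were ranked again, 42 of the 150 stayed in the list under every omission. The heifer whose absence lowered the SD most was 172 for 68 genes, 170 for 37, 262 for 19 and 294 for 12. Without heifers 170, 172 and 262 on all diets, the median SD of the 150 genes was 0.56 on 3% grain, 0.40 on 75% grain and 0.40 on 92% grain, and 118 genes had their largest SD on 3% grain. With the median absolute deviation in place of the SD, 115 of the 150 did, and 51 of the 150 would have been chosen. The share of expressed genes with their largest spread on 3% grain was not computed for these settings. The share with a wider spread on 3% grain than the mean of the others was 43.7% without the 3 heifers. It was 56.8% with the median absolute deviation.

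The heifers kept part of their order from diet to diet. The correlation of log2(RPM + 1) over the 15 heifers between 75% and 92% grain, which the choice of genes did not use, had a median of 0.27 over the 150 genes, with quartiles of -0.02 and 0.51, and of 0.27 over expressed genes, with quartiles of 0.06 and 0.46. It was over 0.5 for 39 of the 150 genes (26.0%; 20.8% of expressed genes) and below 0 for 41 (27.3%; 19.1%). From 3% to 75% grain the median was 0.35, against 0.25 over expressed genes, and from 3% to 92% grain 0.25, against 0.13. Set B had a median of 0.45 and set A one of 0.26 from 3% to 75% grain. The genes and the sets were chosen on the 3% grain levels, so these correlations from 3% grain are a description. Without heifers 170, 172 and 262, the median between 75% and 92% grain was 0.18.

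The levels on 92% and 75% grain, whose difference did not enter the ranking, were compared with limma on log2(RPM + 1) over all 11516 expressed genes, and a gene was called where the p adjusted by Benjamini and Hochberg was under 0.05 and the levels differed over 1.5-fold. This fit held no heifer term, although the same heifers gave both diets. By this test 0 of the 150 genes were called, and 0% of expressed genes were called (0 genes). At an unadjusted p under 0.05 there were 19 of the 150 and 1330 of all genes (11.5%), and edgeR on the recovered reads called 0 genes, with 18 of the 150 and 1288 of all at that p. With the heifer as a replicate block, limma called 14 expressed genes, 0 of them in the list. At the unadjusted p that paired fit had 26 of the 150 and 2038 of all genes (17.7%). The median log2 difference, 92% minus 75% grain, was -0.03 over the 150 genes and -0.03 over expressed genes, with 63 of the 150 (42.0%) and 38.1% of expressed genes higher on 92% grain. The mean changes of the listed genes from 3% grain were all limited to 0.5, which limits this difference to under 1.

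The smallest p of the list, and of the whole table, belonged to ENSBTAG00000017869, ranked 73 in set B. It had 33.4 RPM in the lowest heifer on 75% grain, a median of 41.8 RPM and 52.2 RPM in the highest, and 23.8, 30.9 and 44.1 RPM on 92% grain. The diets overlapped, and 13 of 15 heifers were lower on 92% grain. The log2 difference was -0.43 with a standard error of 0.08, and it missed the threshold (limma adjusted p = 0.0757). In a paired fit with the heifer as a replicate block, its adjusted p was 0.0129 in limma, though it differed by under 1.5-fold. That fit called 14 expressed genes at the threshold, 0 of them in the list. By the adjusted p alone it called 92 genes, of which this gene was the 1 in the list. On 3% grain the gene had 15.0, 32.3 and 46.5 RPM, with heifers 170 and 294 lowest. It was chosen for its p after the values were seen.

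The spread on 92% grain was compared with that on 75% grain in the same way, with limma on the absolute deviation of each value from the median of its diet. By this test, 0 of the 150 genes differed at an adjusted p under 0.05, with 0% of expressed genes called (0 genes). At an unadjusted p under 0.05 there were 2 of the 150 and 323 of all genes (2.80%). In the paired fit with the heifer as a replicate block there were 9 of the 150 and 377 of all genes (3.27%), and with the deviation taken from the diet mean 8 of the 150 and 573 of all (4.98%), with 0 genes called at the adjusted p in either fit. The median difference in deviation, 92% minus 75% grain, was -0.02 over the 150 genes and 0.006 over expressed genes, and 56 of the 150 (37.3%) had a wider spread on 92% grain, against 55.1% of expressed genes. The SDs on both grain diets entered the ranking as their mean. The spread on 3% grain was not tested against the others, because it chose the genes.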

How the data were processed

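RNA of ruminal papillae was sequenced from 15 heifers on 3 diets (45 samples, TruSeq mRNA libraries, paired ends). The authors demultiplexed reads with CASAVA 1.8, aligned them to bovine UMD 3.1 with Tophat 2.0.10, counted reads per Ensembl gene with htseq-count, and deposited RPM, 1 file per sample. All values were whole multiples of the RPM of 1 read, to within 0.0014 read, which gave the reads per sample. The closest pair of samples differed by a chi-square of 20.6 per degree of freedom, so each was counted as a sample of its own. Samples of a diet come from separate animals. All samples were run on a single chip, each lane holding every diet; which samples shared a lane was not given in the sources used here.

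Groups came from the sample labels, which do not hold ruminal pH groups, so none were used. Spread was the SD of log2(RPM + 1). Levels and absolute deviations were compared with limma 3.58.1 in R 4.3.3 (two-sided, variance trend) over all expressed genes of the 2 grain diets, without a heifer term, and recovered reads with edgeR 4.0.16. Both fits were tested on simulated data. Whether the fit of the absolute deviations finds differences as small as those measured here was not tested. The same heifer gave all diets, so replicate numbers pair samples: deviations from diet means correlated with a median r of 0.36 in the same heifer (45 pairs) and -0.02 between heifers (630 pairs). Other steps used Python 3.11.15 and numpy 2.4.6.

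The members and lists were chosen with earlier results of these data known. Lists of pathway genes and cell type markers could not be applied, as the files hold no names. The rule for named genes took the 24 members ranked first, those on either side of rank 150, those past a threshold and 3 genes most like the first; only part is printed, since most IDs have no name. Alternatives were a pseudocount of 0.1, TMM scaling, thinned reads, the median absolute deviation, other filters, a heifer block, all samples in 1 fit, and each heifer left out.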

Additional observations from a re-analysis of the deposited data

How the results depend on the processing

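Of the 150 genes, 103 to 140 stayed in the list when a heifer was left out (lowest without heifer 172, highest without heifer 360), 42 stayed under every such omission, 51 stayed with the median absolute deviation and 65 without heifers 170, 172 and 262 together, an alternative chosen after seeing the data. With a pseudocount of 0.1, 118 of the 150 stayed, with TMM scaling 128, with thinned reads 139 and with a filter on mean RPM 112. The SD on 3% grain exceeded both others for 142 to 150 of the genes under single omissions, a count that the ranking fixed in large part. The number of expressed genes wider on 3% grain ran from 6177 (without heifer 172) to 7910 (without heifer 286). The narrowing of *RASL1A* (ENSBTAG00000005244) was -0.0052 with the median absolute deviation, and that of ENSBTAG00000006991 was -0.057 without the 3 heifers; the cause was not tested.

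For levels on 92% against 75% grain, 0 genes were called in the fit without a heifer term, 14 with the heifer as a replicate block, 92 with the replicate block and no minimum for the fold change (chosen after seeing the data; 1 in the list), 2 with TMM scaling, and 0 to 8 when a heifer was left out (8 without heifer 236, 2 without heifer 170 and 1 without heifer 182). In the list, 0 genes were called under every alternative but that one. The minimum for the fold change kept some of these counts at 0. With TMM scaling, 1 gene of the list had a limma adjusted p under 0.05 (0.0147). The same count was found without heifer 236, 170, 182 or 294. For the spread, 0 genes were called under every alternative, the replicate block included. The median correlation between the grain diets was 0.22 to 0.32 when a heifer was left out.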
